A study of Mus musculus with 28 samples.

Results

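Translation initiation and elongation factors were followed through 28 one-colour mouse expression arrays. The members are the genes whose platform symbol begins with Eif and a number (the Eif2c genes excepted), Eef1, Eef2 or Pabpc and that have a probe set annotated with 1 symbol. They number 65 of 18193 genes, measured by 165 of the 34945 probe sets with 1 symbol. Eif2s1, Eif3g and Eif4g1 are not among them. All arrays carried RNA from the testes of adult male C57BL/6 mice, either wild type (WT) or GRTH-/- (knockout, KO). GRTH, the product of Ddx25, is a DEAD-box RNA helicase of germ cells and Leydig cells, and the KO lacks it in the whole animal rather than in a chosen cell type. WT and KO spermatocytes were hybridised on 4 arrays each, WT and KO round spermatids on 3 each, WT and KO Leydig cells on 2 each and WT and KO total testicular polysome RNA on 3 each. Polysome RNA of WT testes recovered with a GRTH antibody (GRTH IP) and with control IgG (IgG IP) was on 2 arrays each. Cells had been separated by centrifugal elutriation and polysomes by a sucrose gradient. Whether the samples of a group are separate animals is not stated in the labels, and p-values reflect only how far these samples spread, possibly for technical reasons.

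A protein is begun when eIF2, loaded with the initiator tRNA, and eIF1, eIF1A, eIF3 and eIF5 join the small ribosomal subunit, and the eIF4 proteins bring that complex to the capped end of the mRNA. eIF5B then admits the large subunit, which eIF6 otherwise holds apart, and eEF1 and eEF2 drive elongation, while poly(A)-binding proteins hold the other end of the mRNA. eIF2B recharges eIF2, and 4 kinases of eIF2 and the eIF4E-binding proteins slow the process. Male germ cells depend on this machinery in an unusual way: many mRNAs made in spermatocytes and round spermatids are stored and translated days later, and several factors have testis-enriched copies, such as Pabpc2. Mice without GRTH are known to stop at the round spermatid stage and to be sterile.

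Ddx25 signal was lower on each KO array (598 to 4596) than on any WT array of cells or polysomes (12998 to 21149). The place of the deletion relative to the probes is not stated in these sources. For IgG IP 1, WT polysome 1 and 2 and KO polysome 1, 4 arrays in all, the title and the free-text description disagree on the group, and titles were followed. Polysome columns 1 and 2 of both genotypes had been deposited without scaling, at trimmed means of 29.8 to 168 against 500 elsewhere, and all arrays were rescaled to 500. Signals of 10 marker genes of elongating spermatids summed to 158380 to 160020 on the WT Leydig arrays and to 112820 to 138820 on the WT spermatocyte arrays, against 282820 to 383680 in WT round spermatids, so transcripts of these genes were measured in both fractions, and their source was not tested. The 6 Leydig cell markers measured summed to 32033 and 32086 on the WT Leydig arrays and to 978 to 1015 in WT round spermatids. On the spermatocyte arrays they summed to 6475 to 7067 in WT and to 8748.5 to 9715 in KO. There 5 of the 6 were called higher in the KO and 0 lower, beside 19.6% and 17.8% of all genes. All 10 elongating spermatid markers fell in the KO in spermatocytes, round spermatids, Leydig cells and polysome RNA, with median log2 differences of -0.93, -0.61, -0.58 and -2.75. For 7 round spermatid markers these medians were -0.38, -0.44, -0.32 and -0.65, beside 0.032, 0.15, -0.0092 and 0.13 over all genes. In such bulk samples, fewer cells of a type and less RNA per cell cannot be told apart. The part of these shifts in the results given here was not tested.

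Promoters are shown for 3 genes taken from those whose signal moved most between the stages, or whose probe sets parted, to set their start regions side by side. Each line gives the 250 bases before a RefSeq start in build GRCm38.p6, 5′ to 3′ on the gene's strand, and capitals mark letters matching, on either strand, GGGCGG (GC box), CCAAT (bound by NF-Y), TATAAA (bound by TBP) or TGACG. Eif1ax lies at chrX:159371928-159372177 on the plus strand for this window, Eif4h at chr5:134639410-134639659 on the minus strand, and Eif4e has starts with windows at chr3:138525941-138526190 and chr3:138527018-138527267 on the plus strand.
Eif1ax: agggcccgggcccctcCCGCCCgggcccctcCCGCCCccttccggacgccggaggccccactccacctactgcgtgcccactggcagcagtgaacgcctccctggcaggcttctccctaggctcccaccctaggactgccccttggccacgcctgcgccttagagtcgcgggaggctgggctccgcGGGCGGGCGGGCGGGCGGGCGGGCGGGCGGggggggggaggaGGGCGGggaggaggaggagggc
Eif4h: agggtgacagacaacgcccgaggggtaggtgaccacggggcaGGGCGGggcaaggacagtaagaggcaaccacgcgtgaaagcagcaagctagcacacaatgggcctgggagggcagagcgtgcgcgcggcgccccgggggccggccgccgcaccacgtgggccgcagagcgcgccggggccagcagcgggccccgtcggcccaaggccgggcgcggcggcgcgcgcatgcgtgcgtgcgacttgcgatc
Eif4e, upstream start: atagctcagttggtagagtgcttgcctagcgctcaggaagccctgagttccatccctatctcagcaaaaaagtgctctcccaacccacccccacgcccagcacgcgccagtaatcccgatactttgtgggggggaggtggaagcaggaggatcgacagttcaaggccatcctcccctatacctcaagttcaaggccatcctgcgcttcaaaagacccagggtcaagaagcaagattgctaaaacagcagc
Eif4e, downstream start: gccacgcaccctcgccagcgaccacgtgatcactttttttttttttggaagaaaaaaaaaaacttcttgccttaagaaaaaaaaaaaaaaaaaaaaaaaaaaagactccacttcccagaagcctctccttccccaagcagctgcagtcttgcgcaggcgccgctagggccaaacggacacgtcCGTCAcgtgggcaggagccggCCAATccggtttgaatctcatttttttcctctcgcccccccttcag
The Eif1ax window holds 10 GC boxes, counted with overlaps, and the Eif4h window holds 1. The upstream Eif4e window holds none of the motifs, and the downstream one holds 1 TGACG, written CGTCA on the strand shown, and 1 CCAAT box. Promoters were found for 50 of the 65 genes, 65 windows in all. GGGCGG was in 42 of these windows (64.6%), against 32.7% of 32851 mouse promoters of the same length. TGACG, a piece of the cyclic AMP response element bound by CREM in spermatids, was in 27 (41.5%) against 17.8%, while the whole element TGACGTCA was in 0, against 1.55%. CCAAT was in 24.6% against 33.8%, and TATAAA in 7.69% against 12.4%. These are counts of letters only.

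Values are given as rescaled signal per array, on a linear scale, and differences as log2 of the signal plus 16, ± the standard error (SE), from limma with Benjamini-Hochberg adjustment over 9097 genes tested in each comparison, called at an adjusted p under 0.05. Each gene is represented by its brightest probe set. Of the 65 genes, 49 were bright enough to be tested in every comparison and 9 in some. The other 7 (Eef1aknmt, Eef2kmt, Eif2ak4, Eif4a3, Pabpc1l, Pabpc4l and Pabpc5) were below the median signal of all genes in every comparison. Signals of different probe sets are not compared with each other.

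**Figure D1:**
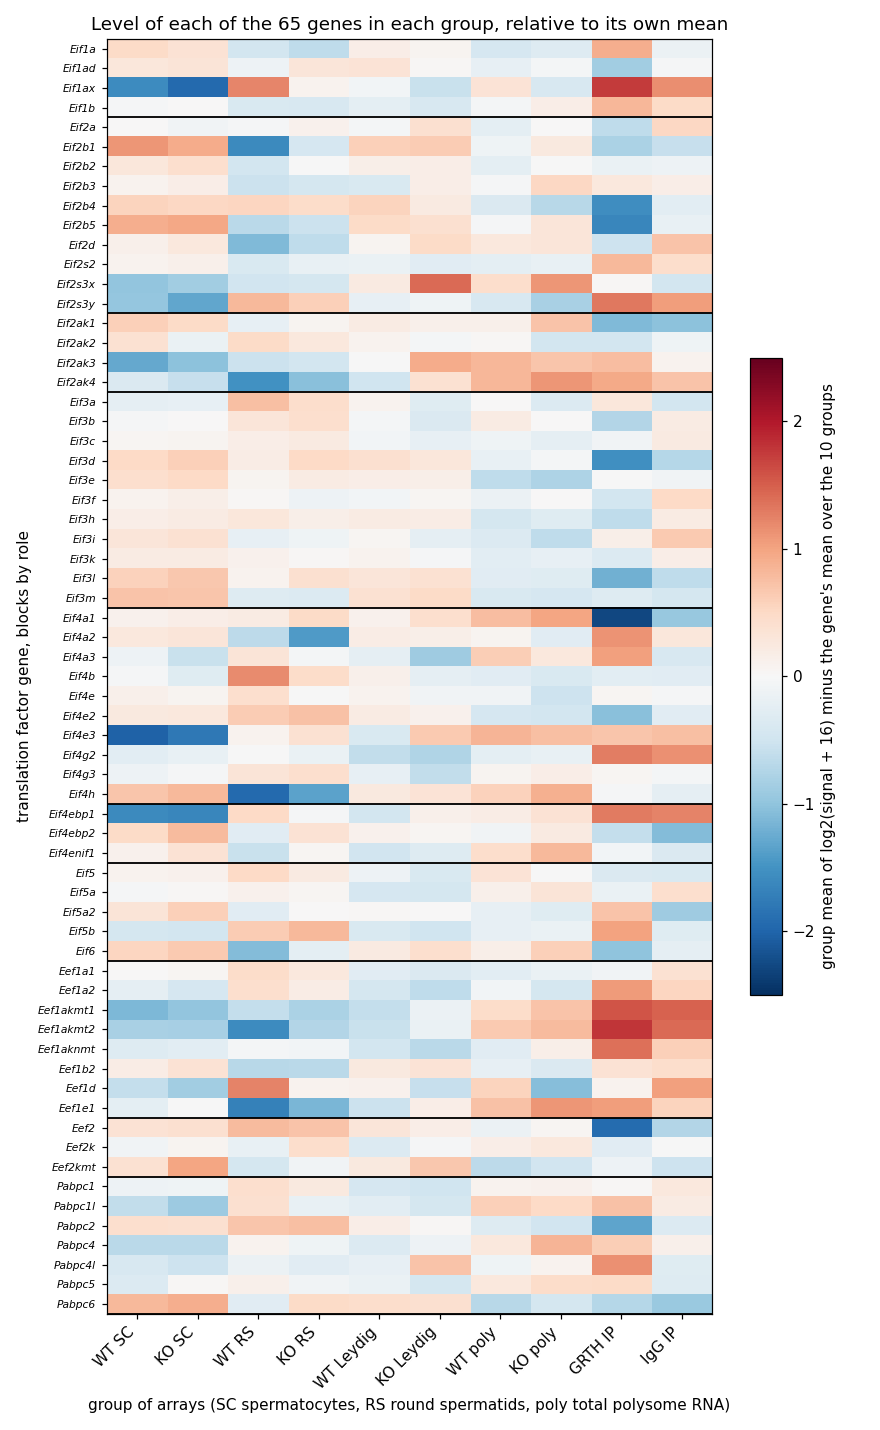
Heat map of the 65 genes (rows, in blocks by role) in the 10 groups (columns); colour is the group mean of log2(signal + 16) minus the gene's own mean over the groups, red above and blue below. Eif1ax and Eef1d stand high and Eif4h, Eif2b1 and Eif6 low in WT round spermatids, the eIF3 block is pale, and the columns of the immunoprecipitations differ most from the rest.

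The question of what changes as spermatocytes become round spermatids was addressed first, in WT. Of 54 members tested, 43 were called (79.6%), 19 higher and 24 lower, against 87.2% of all genes tested, 36.2% higher and 51% lower. Quantile normalization gave 14 higher and 30 lower. The median size of the log2 difference was 0.54 among members and 0.89 over all genes tested, and 14 members (25.9%) against 45.3% of genes differed at least 2-fold. Individual factors nevertheless switched over a wide range, from a log2 difference of -2.70 to 2.80.

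Eif1ax, the X-linked gene of eIF1A, which keeps the small subunit open for scanning, gave 1019, 1042, 1075 and 1107 on the WT spermatocyte arrays and 7479, 7288 and 7699.6 on the WT round spermatid arrays. It rose 6.97-fold (log2 2.80 ± 0.056, limma adjusted p = 2.05e-09), with every round spermatid array far above every spermatocyte array. Its 2 other probe sets were close to background, at most 21.7 on the WT arrays of both stages. Eif1a, its autosomal counterpart, fell by 0.93 on the log2 scale, as did Eif1b (-0.35) and Eif1ad (-0.41).

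Of the 9 eIF2 and eIF2B members tested, 6 fell and 1 rose, where 51% of all genes fell and 36.2% rose. Eif2b1, the regulatory alpha subunit of eIF2B, gave 2261, 2172, 2338 and 2263 in WT spermatocytes and 281, 296 and 449 in WT round spermatids, a fall to well under any spermatocyte array (-2.70 ± 0.14, limma adjusted p = 1.46e-07). The catalytic subunit Eif2b5 fell too (-1.56 ± 0.055), as did Eif2d, which brings tRNA to the ribosome without GTP (-1.23 ± 0.054), Eif2b2, Eif2b3 and Eif2s2, eIF2 beta. The one that rose was Eif2s3y, the Y-linked gene of eIF2 gamma that spermatogonia need to multiply. Its signal was 544, 614, 519 and 591 in WT spermatocytes and 2016, 2145 and 1796 in round spermatids (1.78 ± 0.084, limma adjusted p = 7.21e-08). Its X-linked copy Eif2s3x was too dim to be tested between the stages, at 125, 160.2, 117 and 122 and 197, 189 and 185.

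Among the cap-binding proteins, Eif4h, which stimulates the helicase eIF4A, showed the sharpest fall. It gave 7723, 7412, 7236 and 6978 in WT spermatocytes and 1142, 1206 and 1127 in WT round spermatids, 6.26-fold lower (-2.65 ± 0.059, limma adjusted p = 2.56e-09), and both of its other bright probe sets behaved alike (-2.85 and -2.41). Eif4a2, one of the helicase genes, fell by 0.91 on the log2 scale, whereas Eif4a1 did not pass (0.10 ± 0.06, adjusted p = 0.151). Eif4g3, a scaffold gene that male mice need to finish meiosis, and Eif4e2 rose slightly (0.44 and 0.40), although Eif4e2 turned to -0.034 when a gene's probe sets were averaged. Eif4g2 did not pass (0.25 ± 0.16) and was called lower after quantile normalization (-0.27). The inhibitors of eIF4E went opposite ways. Eif4ebp1 rose from 148, 169, 153 and 196 to 709.8, 818 and 735 (2.08 ± 0.10, limma adjusted p = 7.51e-08), while Eif4ebp2 and Eif4enif1, which carries eIF4E into the nucleus and into storage granules, fell (-0.76 and -0.67). The call of Eif4ebp2 was lost without WT round spermatid 1 (-0.57) or 2 (-0.66).

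Of the 11 eIF3 subunits among the members, 2 rose, 5 fell and 4 did not pass, where 36.2% of all genes rose and 51% fell. Their values lay within a range of -1.03 (Eif3m) to 0.98 (Eif3a, the largest subunit), although another Eif3a probe set was called in the opposite direction. At subunit joining, Eif6 fell from 2789, 2746, 2617 and 2712 to 874, 887 and 845 (-1.63 ± 0.053, limma adjusted p = 8.76e-09), with no overlap between the stages, and Eif5b rose (1.09 ± 0.082). Eif5a, which eases the ribosome past difficult stretches, did not pass (0.13 ± 0.17) and was called lower after quantile normalization (-0.46).

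Among elongation factors, Eef1d stood apart. It encodes the delta subunit of the exchange factor that recharges eEF1A, and a longer form of the same protein acts in transcription in brain and testis. Its signal was 5776, 5403, 5859 and 5546 in WT spermatocytes and 21802, 19768 and 19091 in WT round spermatids (1.84 ± 0.066, limma adjusted p = 1.38e-08). Its partner subunit Eef1b2 fell (-0.89 ± 0.088), as did Eef1e1, which also sits in the multi-tRNA synthetase complex (-1.45 ± 0.088). Eef1a1 and Eef2, which carry tRNA in and move the ribosome on, rose slightly (0.46 and 0.42), but after quantile normalization Eef1a1 was called lower (-0.23) and Eef2 turned to -0.11. The rise of Eef1a1 was lost without WT round spermatid 1 (0.35) or 2 (0.43). Of the poly(A)-binding proteins, Pabpc1, Pabpc2 and Pabpc4 rose (0.54, 0.28 and 0.76), but after quantile normalization Pabpc1 and Pabpc2 were called lower (-0.16 and -0.28). The rise of Pabpc2 was also lost without WT spermatocyte 2, 3 or 4 or WT round spermatid 1 or 2 (0.21 to 0.31). Pabpc6 fell, from 15270, 13830, 12460 and 11708 to 6274, 6037 and 6234 (-1.10 ± 0.092, limma adjusted p = 3.38e-06).

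The same step in the KO, measured on other arrays, gave 40 calls among 52 members tested (76.9%), 17 higher and 23 lower, against 85.3% of all genes, 38.8% higher and 46.5% lower. Values for the genes described ran the same way, with Eif1ax (2.03), Eif4ebp1 (1.60), Eif2s3y (1.89), Eif5b (1.27) and Eef1d (0.97) higher and Eif4h (-2.15), Eif4a2 (-1.71), Eif2b5 (-1.52), Eif2b1 (-1.35), Eif6 (-0.91) and Pabpc6 (-0.44) lower. Where a rise or fall differed in size from WT is tested with the knockout effects.

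**Figure D2:**
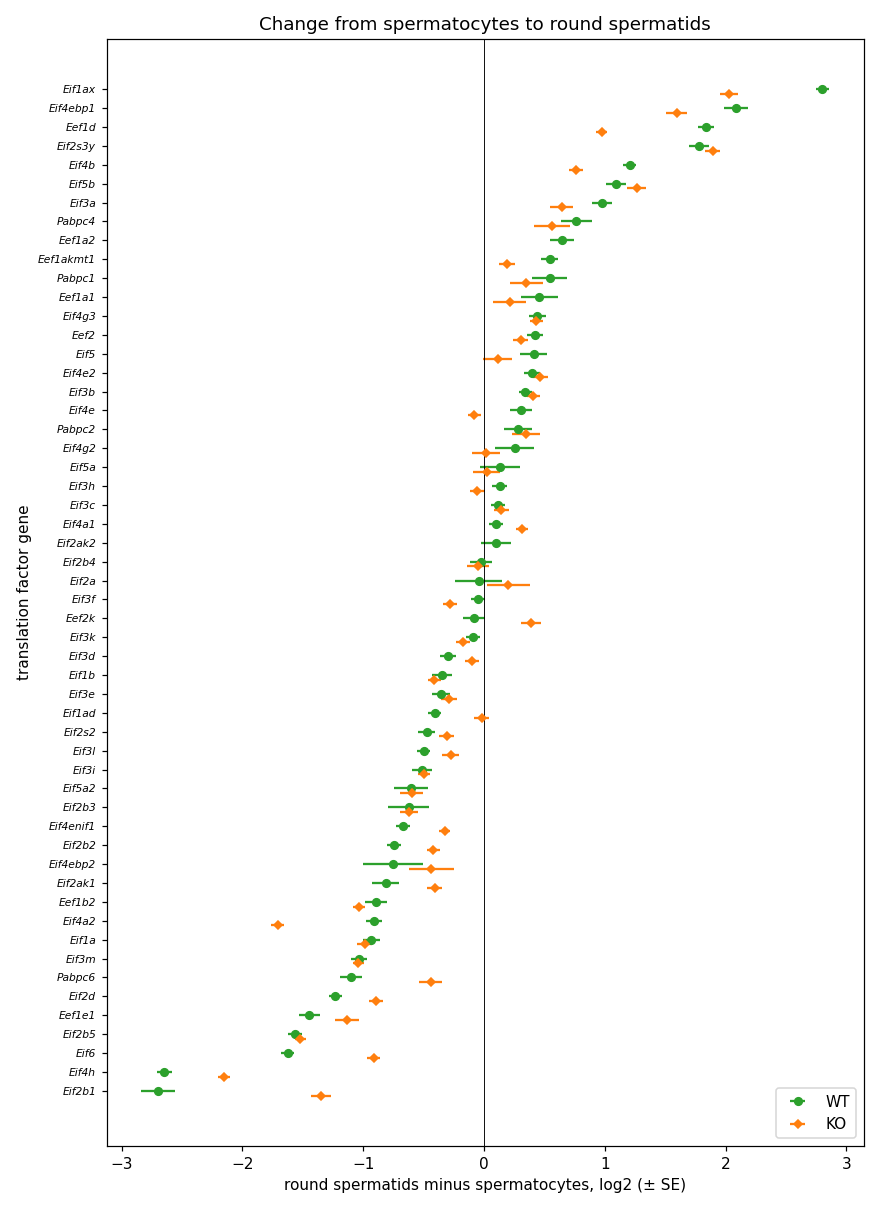
Log2 difference between round spermatids and spermatocytes for each member tested in WT (green circles) and, where tested, in KO (orange diamonds), with SE; genes are sorted by the WT value. Eif1ax, Eif4ebp1, Eef1d and Eif2s3y lie far to the right and Eif2b1, Eif4h and Eif6 far to the left in both genotypes, and the KO points of Eef1d, Eif2b1, Eif6 and Pabpc6 lie nearer to 0.

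In spermatocytes the knockout moved the translation factors little. Of 52 members tested 10 were called (19.2%), 4 higher and 6 lower, against 37.4% of all genes, 19.6% higher and 17.8% lower. The split was 7 higher and 6 lower after quantile normalization and 0 and 5 after centring the arrays on their medians. The median size of the log2 difference was 0.074 among members and 0.14 over all genes, and 0 members differed at least 2-fold. The largest difference belonged to Eif2ak2, the interferon-induced kinase PKR, with 227, 231, 169.7 and 191 in WT and 137, 146, 115 and 138 in KO (-0.55 ± 0.10, limma adjusted p = 0.00251), and all KO arrays were below all WT arrays. Eif1ax gave 758, 795, 853 and 896 in KO spermatocytes, each under the WT range (-0.36 ± 0.059, adjusted p = 0.00127). Eef1d gave 4679, 4617, 4768 and 4595, again without overlap (-0.27 ± 0.042, adjusted p = 0.000896). The other falls were Eif2s3y (-0.33), Eif4b (-0.29) and Eif2b1 (-0.16), and the rises were Eif4enif1 (0.26), Eef1e1 (0.24), Eef1b2 (0.17) and Eif6 (0.12). The call of Eif6 was lost without any 1 of 7 arrays (each but KO 3, 0.11 to 0.14), and that of Eef1e1 without WT 1, WT 3, KO 3 or KO 4 (0.20 to 0.24).

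With the replicate number as a block, 16 members were called in spermatocytes (30.8%, against 49.5% of all genes). The 6 gained were Eif2b2, Eif4ebp2, Eif4g3, Eif4h, Eif5a2 and Pabpc6 (blocked adjusted p = 0.00928, 0.00317, 0.0328, 0.0152, 0.0179 and 0.0232). Within a genotype, arrays 1 and 2 formed a near-identical pair, as did 3 and 4 (SD of log2 differences 0.122 to 0.138 within pairs and 0.193 to 0.221 across). With each such pair averaged only Eif2ak2 and Eif2s3y were called (3.85% of members, against 13.5% of all genes).

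In round spermatids the knockout effect on the factors was wider and went both ways. Of 56 members tested 25 were called (44.6%), 17 higher and 8 lower, against 63.4% of all genes, 41% higher and 22.4% lower. After quantile normalization 36 members were called (64.3%, against 60.3% of all genes), 25 higher and 11 lower, and with near-identical arrays averaged 15 (26.8% against 48.1%). The median size was 0.21 among members and 0.36 over all genes, and 3 members (5.36%) against 7.21% of genes differed at least 2-fold. These 3 were Eef1d, Eif1ax and Eif2b1.

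Eef1d dropped from 21802, 19768 and 19091 in WT to 9528, 8936 and 9058 in KO round spermatids, 2.2-fold (-1.14 ± 0.074, limma adjusted p = 2.35e-05). Eif1ax gave 3297, 3263 and 3693 in the KO, 2.19-fold under WT (-1.13 ± 0.073, adjusted p = 2.23e-05). Eif4a2 gave 3762, 3706 and 3789 in WT and 2257, 2178 and 2182 in KO (-0.76 ± 0.059, adjusted p = 4.67e-05). In none of these did a KO array reach the WT range. The remaining falls were Eif4b (-0.73), Eif4ebp1 (-0.52), Eif4e (-0.44), Eif3a (-0.31) and Eef1akmt1 (-0.21). That of Eif3a turned to 0.13 when a gene's probe sets were averaged, and that of Eef1akmt1, a methyltransferase of eEF1A, was lost with the replicate block (adjusted p = 0.0506) and without WT 1, WT 2, KO 1 or KO 2 (-0.23 to -0.15).

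Among the 17 rises were genes that had fallen between the WT stages. Eif2b1 gave 672, 823 and 866 in KO round spermatids, all above the WT arrays (1.19 ± 0.18, limma adjusted p = 0.000905). Eif6 gave 1533, 1649 and 1519.9, again without overlap (0.84 ± 0.066, adjusted p = 4.69e-05), and Pabpc6 11063, 10599 and 9736 (0.76 ± 0.071, adjusted p = 0.0001). Eif4h stood at 1749, 1782 and 1789.5, 1.52-fold above WT (0.61 ± 0.062, adjusted p = 0.000147). In the KO round spermatids Eif2b1, Eif6 and Eif4h remained far below their spermatocyte levels, and Pabpc6 came nearer to its own. The WT round spermatid arrays enter both this comparison and the stage comparison, so the values of one are not independent of the other.

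By role, 4 of the 10 eIF2 and eIF2B members rose and 0 fell, beside 41% and 22.4% of all genes (Eif2b1, Eif2b2 (0.46), Eif2d (0.46) and Eif2s2 (0.21)), as did the kinase Eif2ak1 (0.29). Of the eIF4 group 3 rose (Eif4h (0.61), Eif4e3 (0.30) and Eif4a1 (0.27)) and 3 fell. The call of Eif2s2 was lost without WT 1, WT 2, KO 1 or KO 2 (0.17 to 0.22), and those of Eif2ak1 (0.24 to 0.31) and Eif4e3 (0.22 to 0.33) without any of these or KO 3. Eif4enif1 rose (0.60), as did Eef2k, the kinase that switches eEF2 off (0.62), Eef1e1 (0.55) and Eif1ad (0.43). Of the 11 eIF3 subunits among the members 8 did not pass, where 63.4% of all genes were called. Eef1a1, Eef2, Pabpc1, Pabpc2 and Eif5a did not pass either, with log2 differences of -0.20, -0.078, -0.16, 0.047 and -0.042. After quantile normalization all 5 were called higher (0.15, 0.23, 0.18, 0.37 and 0.29), whereas with the replicate block Eef1a1 and Pabpc1 were called lower (adjusted p = 0.0325 and 0.0433). Without WT 3 Eef1a1 was called lower (-0.34). The sum of 8 spermatocyte markers was 20062 to 20952 in KO round spermatids and 15168 to 16538 in WT. That of 10 elongating spermatid markers was 182190 to 228950 and 282820 to 383680, and that of 7 round spermatid markers 74598 to 81101 and 102440 to 120000. Of these 7, 5 were called lower and 1 higher in the KO, beside 22.4% and 41% of all genes. The part of these markers in the values given was not tested.

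**Figure D3:**
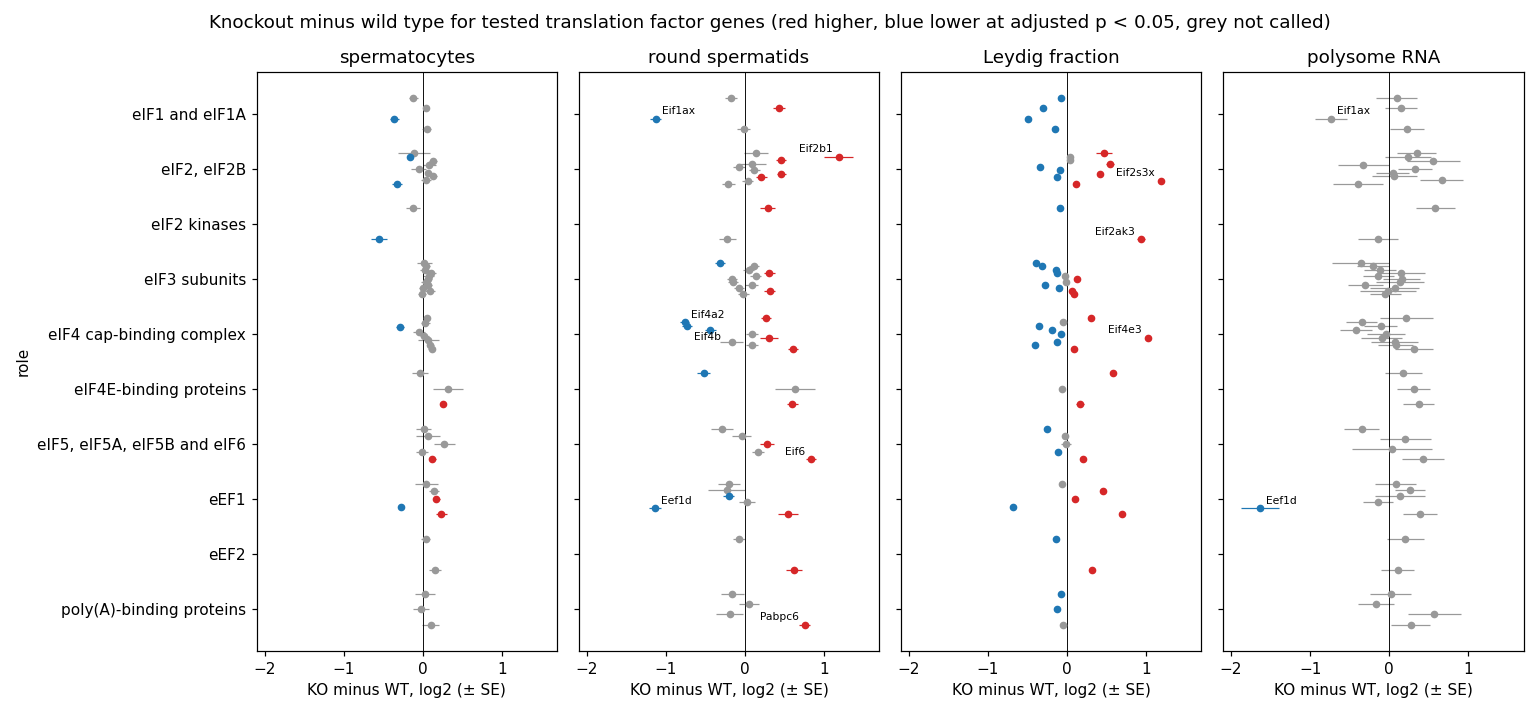
KO minus WT log2 difference (± SE) of every tested member, in rows by role, for spermatocytes, round spermatids, the Leydig fraction and polysome RNA; red points were called higher, blue lower and grey ones were not called. Eef1d is blue in all panels, spermatocyte points lie close to 0, Leydig points have the smallest errors and polysome points the largest.

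**Figure D4:**
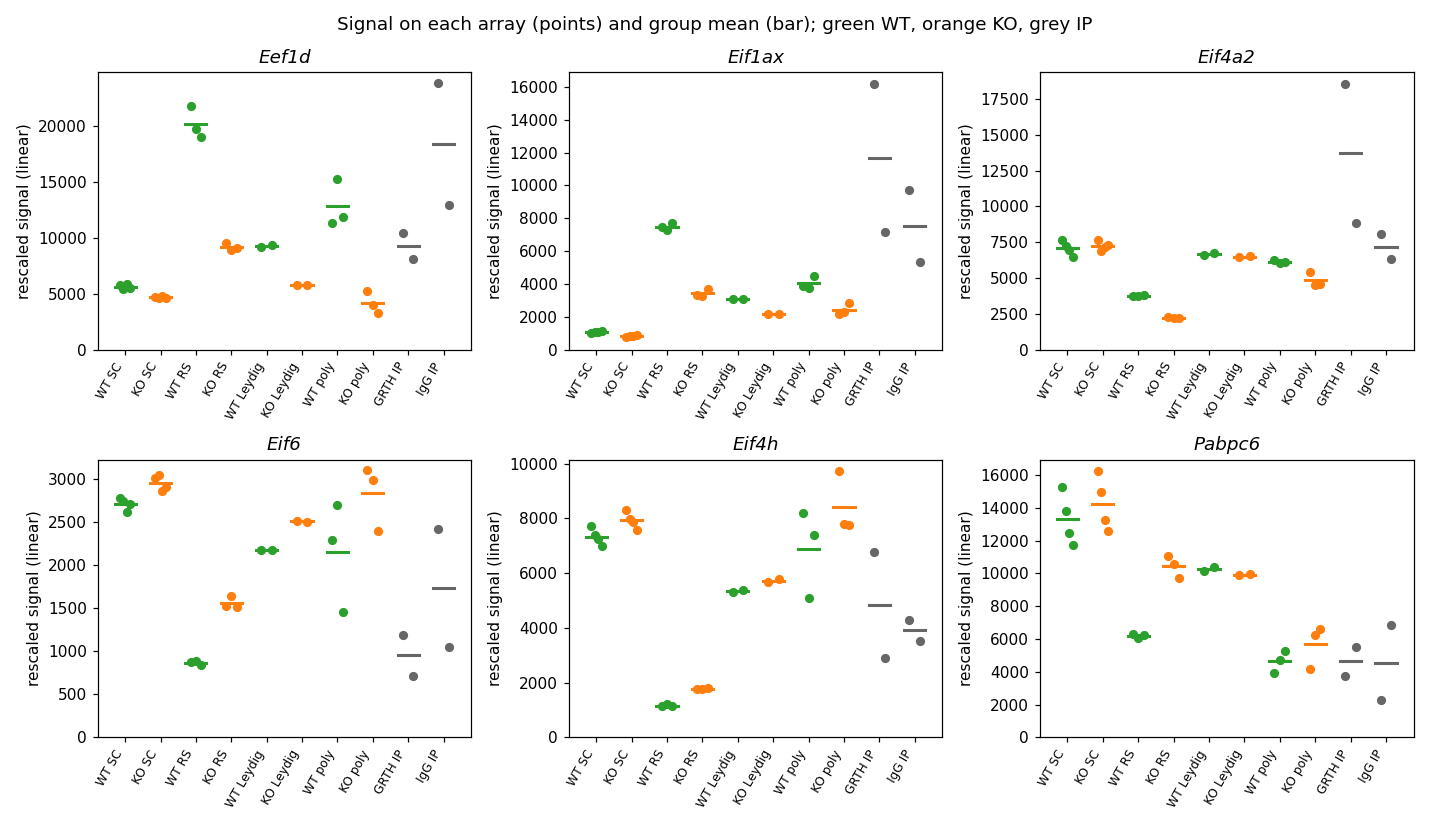
Signal of 6 genes on each array (points) with group means (bars), WT green, KO orange and immunoprecipitations grey, on linear axes from 0. For Eef1d, Eif1ax and Eif4a2 the KO round spermatid points lie below the WT points, for Eif6, Eif4h and Pabpc6 above them, and the 2 points of an immunoprecipitation lie far apart for Eif1ax and closer together for Eef1d with the GRTH antibody.

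Whether the knockout effect depended on the stage was tested as its difference, round spermatids minus spermatocytes. Of 54 members tested, 20 were called (37%), 11 higher and 9 lower, against 46% of all genes, 32.3% higher and 13.7% lower. The split became 15 and 6 after quantile normalization and 10 and 4 after median centring. With near-identical arrays averaged 8 of the 20 were called (14.3% of members, against 19.2% of all genes), namely Eif4b and the 7 described next. The effect was more negative in round spermatids for Eef1d (-0.86 ± 0.077, limma adjusted p = 3.21e-06), Eif4a2 (-0.80 ± 0.083, adjusted p = 9.41e-06) and Eif1ax (-0.77 ± 0.092, adjusted p = 2.54e-05). It was more positive for Eif2b1 (1.35 ± 0.18, adjusted p = 5.53e-05), Eif6 (0.71 ± 0.069, adjusted p = 5.18e-06), Pabpc6 (0.66 ± 0.14, adjusted p = 0.00176) and Eif4h (0.50 ± 0.072, adjusted p = 0.000114). Eif2b1 was the only member called lower in spermatocytes and higher in round spermatids. Across both stages and the Leydig fraction, which share no array, Eef1d, Eif1ax and Eif4b were called lower and Eef1e1, Eif4enif1 and Eif6 higher in each, 3 of 51 members each way, against 11.9% and 9.72% of 7924 genes.

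Polysome RNA, the RNA engaged with several ribosomes, is the material that the series' design text names for comparing WT with KO. Of 54 members tested 1 was called (1.85%), against 6.34% of all genes, 0.572% higher and 5.77% lower. That gene was Eef1d, with 11345, 15267 and 11881 on the WT and 5239.9, 3969.6 and 3259 on the KO polysome arrays. It was 3.11-fold lower in the KO (-1.64 ± 0.24, limma adjusted p = 0.00346), and the highest KO array was under every WT array. A second bright Eef1d probe set fell as well (-1.90 ± 0.28, adjusted p = 0.00653 over 17473 probe sets). Averaged with its dim probe sets the gene gave -0.61 and was not called, nor was it without the 3 arrays of conflicting description (-1.72), which leaves 1 WT array and 2 KO arrays. Among the members, Eef1d was the only one called lower in all 4 RNA sources, which share no arrays, 1 of 49 tested against 5.54% of 7433 genes.

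Eif1ax came next, at 3895, 3773 and 4489.9 in WT and 2162, 2314 and 2807 in KO polysome RNA, without overlap, but it did not pass (-0.74 ± 0.20, adjusted p = 0.0713). With the replicate block it was called (limma adjusted p = 0.00493), and the count of called members became 6 (11.1%, against 24.7% of all genes). Eef1d and Eif1ax were lower and Eif2s3x, Pabpc4, Eif2ak1 and Eif2b3 higher (blocked adjusted p = 0.0142, 0.0198, 0.0226 and 0.024). Without the block these 4 had log2 differences of 0.66, 0.57, 0.59 and 0.56. Eif2s3x gave 494, 406 and 261 in WT and 623, 719 and 490.2 in KO, ranges that overlapped. Other factors called in KO round spermatids differed in whether their polysome values overlapped. Eif4a2 gave 6273, 6037 and 6105 in WT and 5396, 4482 and 4611 in KO, without overlap (-0.35 ± 0.19, adjusted p = 0.354), as did Eif4enif1 with 1534, 1573 and 1581 and 1888, 1932 and 2289 (0.37 ± 0.19, adjusted p = 0.327), and neither passed. The values of Eif6, 2298, 2707 and 1458 in WT and 3110.5, 2998 and 2401 in KO (0.43 ± 0.27), and of Eif4h, 8203, 5089 and 7378 and 9721, 7815 and 7757 (0.31 ± 0.24), overlapped. Pabpc1 (0.017 ± 0.26), Eef1a1 (0.081 ± 0.26) and Eif4g2 (0.071 ± 0.30) lay near 0, and with median centring, which moved the median of all genes from 0.13 to -0.040, they turned to -0.15, -0.084 and -0.094.

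The polysome effect was not shown to differ from the round spermatid effect for any member. limma called 0 of 54, against 2.79% of all genes. An unadjusted p under 0.05 was found for 6 of 54 members and 1704 of 9097 genes. The fit over 24 arrays called 7 members (13%, against 17.5% of all genes). The difference for Eef1d was -0.50 ± 0.25 (adjusted p = 0.309) and that for Eif2b1 -0.84 ± 0.31 (adjusted p = 0.168). Arrays of 1 polysome group differed from each other by 0.449 to 0.713 (SD of log2 differences over all genes), against 0.162 to 0.28 for round spermatids.

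In the Leydig fraction, the interstitial cells that make testosterone, 44 of 54 members tested were called (81.5%), 19 higher and 25 lower, against 77.9% of all genes, 38.6% higher and 39.3% lower. With quantile normalization 21 were higher and 15 lower, and with median centring, which moved the median of all genes from -0.0092 to -0.18, 11 were higher and 39 lower. The paired arrays of each genotype were almost identical (SD of log2 differences 0.0884 in WT and 0.0765 in KO), so small differences passed. A fit that shared the spread of 24 arrays called 13 (24.1%, against 23.2% of all genes). The median size was 0.13 among members and 0.24 over all genes. The 3 largest rises were those of Eif2s3x, Eif4e3 and Eif2ak3. Eif2s3x gave 312 and 332 in WT and 765 and 748 in KO (1.19 ± 0.036, limma adjusted p = 5.32e-05), and both of its other probe sets also stood higher in the KO (80.3 and 82.3 in WT and 197 and 186 in KO, and 222 and 214 in WT and 633 and 608 in KO). Eif2ak3, the endoplasmic reticulum stress kinase PERK, gave 207 and 189 and 403 and 386 (0.94 ± 0.052, adjusted p = 0.00024). Eif4e3, a cap-binding relative of eIF4E, gave 231 and 222 and 474 and 481 (1.03 ± 0.029, adjusted p = 4.37e-05). Next were Eef1e1 (0.70), Eif4ebp1 (0.58), Eif2b3 (0.55), Eef1akmt1 (0.46) and Eif2d (0.42). Another Eef1akmt1 probe set was called in the opposite direction.

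The leading falls in the Leydig fraction were those of Eef1d and Eif1ax, which were also called lower in both germ cell stages. Eef1d gave 9193 and 9369 in WT and 5764 and 5746 in KO (-0.69 ± 0.021, limma adjusted p = 5.46e-05), and Eif1ax 3056 and 3060.4 and 2184 and 2162 (-0.49 ± 0.02, adjusted p = 0.000101). They were followed by Eif4g3 (-0.40), Eif3a (-0.39), Eif4b (-0.35), Eif2b4 (-0.34) and Eif3b (-0.32). Of these, Eif4b was also called lower in both germ cell stages and Eif3a in round spermatids, and Eif4g3, Eif2b4 and Eif3b were called in neither stage. Other probe sets of Eif3a and Eif4b were called in the opposite direction in the Leydig fraction. Eif4a2, lower in KO round spermatids, did not pass in the Leydig fraction (-0.049 ± 0.022, limma adjusted p = 0.111). Of the 11 eIF3 subunits among the members 6 fell and 3 rose, none by more than 0.39 on the log2 scale, beside 39.3% and 38.6% of all genes. With probe sets averaged, Eif1ax turned to 0.46 and Eif4b to 0.04. Leydig markers summed to 32033 and 32086 in WT and to 59019 and 59824 in KO, 7 macrophage markers to 3268 and 3331 and to 7858 and 7874, and 10 elongating spermatid markers to 158380 and 160020 and to 108270 and 110510. Their part in the changes of this fraction was not tested.

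In WT, the Leydig fraction differed from the mean of both germ cell stages in 29 of 55 members tested (52.7%), 13 higher and 16 lower, against 52.6% of all genes, 30.7% higher and 21.9% lower. Quantile normalization gave 17 and 9. Without WT Leydig 1 the count fell to 14. The higher ones included Eif2s3x (0.96), Eif4h (0.87), Eif2b1 (0.85) and Eef1b2 (0.49), and the lower ones Eif5b (-0.49) and Eif4b (-0.44), of which Eif4b turned to 0.12 with probe sets averaged. Eif4h gave 5321 and 5397 in the WT Leydig fraction, between the spermatocyte and round spermatid levels, as did Eif2b1 (1590.1 and 1589), Eef1d (9193 and 9369) and Eif1ax (3056 and 3060.4). Eif2s3x (312 and 332) was above every array of either germ cell stage.

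In the GRTH IP against the IgG IP, 0 of 56 members and 0% of all genes were called by limma. At an unadjusted p under 0.05 stood 2 members and 364 genes. A fit sharing the spread of all 28 arrays called 16 members (28.6%, against 27.8% of all genes). Eif5a2, the second eIF5A gene, had the largest difference (1.59 ± 0.58, adjusted p = 0.977), and Eif2b5 gave -1.43 ± 0.59. Eef1d gave 10436 and 8078 with the GRTH antibody and 23859 and 12968 with IgG, and Eif1ax 16152 and 7161 and 9747 and 5312. The arrays of 1 antibody lay far apart, with an SD of log2 differences of 1.01 for GRTH and 1.13 for IgG. Both GRTH values of Eef1d lay below both IgG values, while those of Eif1ax overlapped. The ratio of 3′ to 5′ beta-actin signal, which rises with RNA loss or extra amplification, was 3.81 to 12.8 on these arrays and 1.57 to 2.09 on the polysome arrays.

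Eif4e, the gene of the cap-binding protein itself, was read differently by its probe sets and was singled out after its values were seen. Tested one by one over 17473 probe sets, 3.29% of probe sets were called in polysome RNA, 29.4% in spermatocytes, 51.9% in round spermatids, 70.5% in the Leydig fraction, 82.7% between WT stages and 80.6% between KO stages. The probe set that stands for the gene moved little: 9989, 8859 and 9765 in WT round spermatids and 7086, 6966 and 7063 in KO (-0.44 ± 0.07), and 6480.3, 7189 and 6410.3 in WT and 4333, 5099.8 and 5597 in KO polysome RNA (-0.42 ± 0.20, adjusted p = 0.287). A second probe set gave 544, 546, 532 and 547 in WT spermatocytes and 5250.2, 5398 and 4587 in WT round spermatids, a log2 rise of 3.19 ± 0.073. In KO round spermatids it gave 900.0, 945 and 1026 (-2.39 ± 0.095, limma adjusted p = 3.1e-05), under every WT array.

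That second Eif4e probe set fell in each KO source. In polysome RNA it gave 1331, 1614 and 3056 in WT and 312, 353 and 345 in KO (-2.42 ± 0.31, adjusted p = 0.00358), and in the Leydig fraction 1864 and 1890.3 and 460.3 and 466 (-1.98 ± 0.025). In spermatocytes the difference was -0.87 ± 0.059 (adjusted p = 1.97e-05). Set against the probe set that stands for the gene, array by array, the gap itself passed in polysome RNA (-2.00 ± 0.33, limma adjusted p = 0.0337), spermatocytes (-0.81 ± 0.11, 0.00246), round spermatids (-1.95 ± 0.13, 0.000338) and the Leydig fraction (-1.80 ± 0.038, 0.0015). Probe set 3 fell from spermatocytes to round spermatids instead (-1.77 ± 0.10) and did not pass in KO round spermatids (0.10 ± 0.092). Their positions on the transcript were not analysed here.

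Eif4b, whose protein helps eIF4A unwind the mRNA, was also read in opposite directions. The probe set that stands for it rose between the stages, from 929.7, 941, 1019.5 and 989 to 2259, 2234 and 2276 (1.21 ± 0.056), and fell in KO round spermatids to 1384, 1387 and 1301 (-0.73 ± 0.062). Its other probe sets fell between the stages (-1.49 ± 0.072 and -2.01 ± 0.082), and in KO round spermatids 1 rose (0.25 ± 0.084, adjusted p = 0.0429) and the other did not pass (0.24 ± 0.10, adjusted p = 0.0821). Both gaps passed in both comparisons (limma adjusted p = 0.00207 and 0.00271 in the KO, 2.43e-07 and 1.42e-07 by stage). For members with several bright probe sets, each other probe set was paired with the one that stands for the gene, so a gene can give several pairs. Gaps passed for 1 of 61 pairs in polysome RNA, 7 of 62 in spermatocytes and 11 of 61 in round spermatids. They passed for 26 of 58 pairs in the Leydig fraction, 33 of 63 between WT stages and 28 of 64 between KO stages. These are shares of 1.64%, 11.3%, 18%, 44.8%, 52.4% and 43.8%, against 1.44%, 13.9%, 20.9%, 44.8%, 57.6% and 59.6% of pairs over all genes. Some other probe sets were called opposite to the one that stands for the gene. They were 11 of 63 between WT stages (Eif3a, Eif4b, Eif4e, Eif4e2, Eif5, Eif5a2 and Pabpc1). Between KO stages 8 of 64 were (Eif3a, Eif4a1, Eif4b, Eif4e2, Eif5a2 and Pabpc1), and in KO round spermatids 2 of 61 (Eif3a and Eif4b). In the KO Leydig fraction 11 of 58 were (Eef1akmt1, Eif1a, Eif1ad, Eif2s2, Eif3a, Eif3i, Eif4b, Eif4e, Eif4g2 and Eif5). The share over all genes was not counted.

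**Figure D5:**
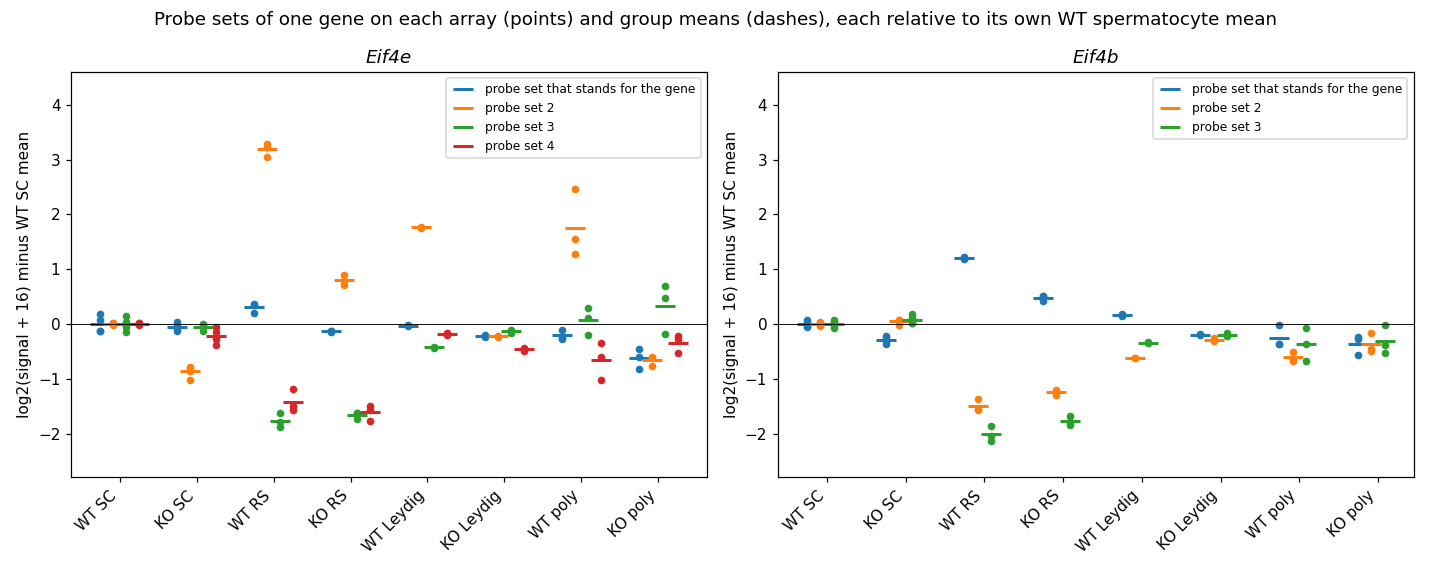
Eif4e (left) and Eif4b (right): log2(signal + 16) of each probe set on each array of cells and polysomes (points) with group means (dashes), relative to that probe set's own WT spermatocyte mean. Probe set 2 of Eif4e lies far above 0 in WT round spermatids, WT Leydig and WT polysome arrays and lower on the matching KO arrays, while the probe set that stands for Eif4e stays near 0; the probe sets of Eif4b part in opposite directions in round spermatids.

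Other genes of translation, from lists that are not members, moved as follows. Of the regulators of initiation, 21 were tested in round spermatids, where 10 rose in the KO and 1 fell (median log2 difference 0.28, against 0.15 over all genes, of which 41% rose and 22.4% fell). Between WT stages 3 of 23 rose and 16 fell (median -0.54, against -0.24 over all genes, of which 36.2% rose and 51% fell). Of the mitochondrial translation factors, which serve the separate ribosomes of mitochondria, 5 of 6 rose and 0 fell in KO round spermatids (median 0.42, beside 41% and 22.4% of all genes), and 1 of 7 rose and 6 fell between WT stages (median -1.20, beside 36.2% and 51% of all genes). Factors of termination, recycling and ribosome rescue split, with 4 of 10 higher and 3 lower in KO round spermatids. Of 5 modifiers of eIF5A and eEF2, 0 rose and 1 fell there. In KO polysome RNA, 1 of 9 genes of termination was called, higher, against 6.34% of all genes called and 0.572% called higher. There, 0 of 25 regulators of initiation, 0 of 5 modifiers and 0 of 7 mitochondrial factors were called.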

How the data were processed

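RNA of 10 groups was measured on 28 one-colour arrays. The deposited values are linear signal intensities of 45101 probe sets; per the submitters' processing notes the authors made them with GCOS, Affymetrix's array software, whose version and settings these sources do not state. The deposited intensities of 24 arrays averaged 500 once 0.02 of the values had been cut from either tail. The plan kept the deposited scale; as 4 polysome columns were unscaled, all arrays were rescaled to 500 and log2(signal + 16) was taken, which understates changes of dim genes. Names came from the platform annotation: 34945 probe sets had 1 symbol, 932 several and 9160 none, and 64 controls were left out. A gene is its probe set of highest mean over all arrays, and genes whose mean over the comparison's arrays exceeded the median gene (9097) were tested.

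Each of 10 comparisons used limma 3.58.1 in R 4.3.3 (lmFit, eBayes) on its own groups, without a replicate block, with Benjamini-Hochberg adjustment at 0.05 over all genes. Steps were tested on simulated data. Same-numbered arrays deviated together in polysome RNA (correlations 0.41 to 0.632), spermatocytes (0.254 to 0.339), round spermatids (0.142 to 0.22) and between stages (0.179 to 0.246). The numbers were therefore taken to pair these arrays, on the evidence of the data. Arrays of different number were not compared across groups. In spermatocytes, pairing by number therefore cannot be told apart from the likeness of arrays 1 and 2 and of arrays 3 and 4. In Leydig cells (0.0099) the numbers were not taken as pairs, and the immunoprecipitations (0.418) have only 2 pairs. The main p-values leave this pairing out, and the replicate block is given as an alternative. In polysome RNA the block moved the share of all genes called from 6.34% to 24.7%.

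The members, gene lists, tests and named genes were chosen with earlier results of these data known. Named are up to 12 members a direction with the smallest adjusted p, or the 5 smallest where fewer than 5 pass, plus a fixed set of main factors; others complete a role's count and were chosen after their values were seen. Probe sets of near-identical genes (Eif1a and Eif1ax, Eif2s3x and Eif2s3y, the Pabpc family) may share signal. Promoters are RefSeq's, build GRCm38.p6. Alternatives were quantile normalization, median centring, an offset of 64, no filter, averaged probe sets, the block, wider fits, averaged near-identical arrays, deposited values and left-out arrays. Tests of single probe sets and of their gaps were added after seeing the data.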

Additional observations from a re-analysis of the deposited data

Results flagged for a closer look

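The knockout effect differed between round spermatids and spermatocytes for 20 members, by limma's test of the difference (adjusted p under 0.05 over 9097 genes, 46% of which were called). It was lower in round spermatids, on the log2 scale, for Eef1d (-0.86), Eif4a2 (-0.80), Eif1ax (-0.77), Eif4ebp1 (-0.49), Eif4b (-0.44), Eif4e (-0.38), Eef1akmt1 (-0.35), Eif3a (-0.34) and Eif3f (-0.23). It was higher in round spermatids for Eif2b1 (1.35), Eif6 (0.71), Pabpc6 (0.66), Eif4h (0.50), Eef2k (0.47), Eif2ak1 (0.41), Eif1ad (0.39), Eif4enif1 (0.35), Eif2d (0.33), Eif2b2 (0.33) and Eif4a1 (0.22). With near-identical arrays averaged, 8 of the 20 were called: Eef1d, Eif4a2, Eif1ax, Eif4b, Eif2b1, Eif6, Pabpc6 and Eif4h. Single arrays decided 4 of these 20 calls. Eif4a1 was no longer called without KO round spermatid 1 (0.20). Eif2ak1 was lost without WT round spermatid 1 or 2 (0.36 each) or KO round spermatid 3 (0.38). Eif3f was lost without WT spermatocyte 2 or 4, KO spermatocyte 1 or 3, WT round spermatid 1, or KO round spermatid 2 or 3 (-0.22 to -0.21). Eif3a was lost without WT spermatocyte 1 or 2, KO spermatocyte 3 or 4, WT round spermatid 1 or 2, or any KO round spermatid array (-0.37 to -0.28).

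In KO spermatocytes, replicate 3 stood apart for Eef2k, with log2(signal + 16) of 8.16 against 8.29 to 8.31 on the other 3 arrays. There, replicate 1 stood apart for Eif1a, with 11.31 against 11.42 to 11.44. These are 2 of 94 sets of 4 values checked, and chance flags about 1 in 20.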

How the results depend on the processing

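Counts of called members changed by more than 1.5 times under these alternatives; unless the setting itself removes arrays or genes, the cause was not tested. Fits that left 1 array in a group are not counted here. In polysome RNA the 1 call became 2 with median centring (3.7% of members, against 7.69% of all genes) and 0 with probe sets averaged (against 4.53%). It became 6 with the replicate block (11.1% against 24.7%) and 12 in the fit over 24 arrays (22.2% against 34.5%). With deposited values, 4 columns unscaled, 0 members and 0% of all genes were called. In spermatocytes 10 became 5 with median centring (9.62% against 23.6%), 6 without a filter (9.23% against 17%) and 16 with the replicate block (30.8% against 49.5%). It became 4 in the fit over 24 arrays (7.69% against 13.6%) and 2 with near-identical arrays averaged (3.85% against 13.5%). In round spermatids 25 became 16 with probe sets averaged (29.6% against 52.2%) and 15 with arrays averaged (26.8% against 48.1%). In Leydig cells 44 became 28 with probe sets averaged (51.9% against 65.8%) and 13 in the fit over 24 arrays (24.1% against 23.2%). The immunoprecipitations went from 0 to 16 in the fit over 28 arrays (28.6% against 27.8%). The difference between stages went from 20 to 13 (24 arrays, 24.1% against 18.9%) and 8 (arrays averaged, 14.3% against 19.2%). That between polysomes and round spermatids went from 0 to 7 (24 arrays, 13% against 17.5%), and Leydig against germ cells from 29 to 17 (24 arrays, 30.9% against 26.2%). Both stage comparisons stayed within 1.5 times under every alternative, and the block changed no count other than those given by more than 1.5 times.

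Leaving out single arrays gave 1 to 1 calls in polysome RNA, 8 to 10 in spermatocytes, 20 to 31 in round spermatids, 30 to 38 in Leydig cells, 0 to 0 in the immunoprecipitations, 40 to 45 and 37 to 44 between WT and KO stages, 17 to 24 for the difference between stages, 0 to 1 for polysomes against round spermatids and 14 to 31 for Leydig against germ cells (14 without WT Leydig 1), where a lone Leydig array was assumed to vary like the others.

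Signs turned for some genes named above, the cause not tested. Averaging a gene's probe sets, dim ones included, did so for Eif1ax and Eif4g2 in KO polysome RNA (0.082 and -0.076), Eif3a and Pabpc1 in KO round spermatids (0.13 and 0.018), Eif1ax and Eif4b in the KO Leydig fraction (0.46 and 0.042), Eif4a1, Eif4b, Eif4e2, Eif4g2, Eif5a and Pabpc1 between WT stages (-0.38, -0.77, -0.034, -0.0024, -0.18 and -0.70), Eif2d and Eif3a in the difference between stages (-0.15 and 0.31), Eef1d in polysomes against round spermatids (0.10) and Eif4b in Leydig against germ cells (0.12). Quantile normalization did so for Eef1a1, Eef2, Eif5a and Pabpc1 in KO round spermatids (0.15, 0.23, 0.29 and 0.18) and for Eef1a1, Eef2, Eif4g2, Eif5a, Pabpc1 and Pabpc2 between WT stages (-0.23, -0.11, -0.27, -0.46, -0.16 and -0.28). Median centring did so for Eef1a1, Eif4g2 and Pabpc1 in polysome RNA (-0.084, -0.094 and -0.15) and Eif4a1 and Eif5a between WT stages (-0.079 and -0.047). Centring also moved the median of all genes in the WT stages from -0.24 to -0.41, in the KO stages from -0.10 to -0.22, in the immunoprecipitations from -0.02 to -0.41 and in polysomes against round spermatids from -0.14 to -0.31. Deposited values gave -0.33, -0.019, -0.34, -0.099 and -0.40 for Eef1a1, Eif4enif1, Eif4g2, Eif4h and Pabpc1 in polysome RNA, and averaged near-identical arrays 0.0085 for Eif5a in KO round spermatids. Single left-out arrays turned, in polysome RNA, Eif4g2 (range -0.16 to 0.33), Pabpc1 (-0.18 to 0.17) and Eef1a1 (-0.12 to 0.28), and in KO round spermatids Eif5a (-0.18 to 0.058) and Pabpc2 (-0.057 to 0.16). The number of arrays limits the precision throughout.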
